A study of Homo sapiens with 11 samples.

Results

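The genes described here code for chromatin regulators: subunits of the SWI/SNF nucleosome remodellers and of the NuRD and SIN3 corepressors, CHD remodellers, histone deacetylases and sirtuins, lysine demethylases, SET domain and Polycomb methyltransferases, and DNA methylation enzymes with their readers. They were chosen by symbol, as every gene of the deposited expression table that matched a name rule. The rule takes names that begin with SMARC, PBRM1, GATAD2, SIN3, RCOR, EZH or SUZ12. It also takes names that begin with ARID, BRD, HDAC, CHD, MBD, RBBP, KDM, SETD, DNMT or SIRT followed by a digit. EED, and MTA followed by a single digit, were matched as whole names. The rule found 65 members among 8085 genes, and it also brought in the exons of such genes from the deposited exon lists. All samples were MDA-MB-231 cells, a human breast cancer line of mesenchymal type, 48 h after transfection of small interfering RNA (siRNA). In siBCL11A (3 libraries) the cells received 100 nM of siRNA against BCL11A, a zinc-finger transcriptional repressor. The siMBNL1 group (3 libraries) received 100 nM against MBNL1, an RNA-binding splicing regulator. In siB/siM (3 libraries) both were given at 50 nM each. The control, siNS (2 libraries), received 100 nM of non-targeting siRNA. All 4 groups are transient transfections of 1 cell line, and the labels do not say whether libraries of a group came from separate cultures, so p-values speak only of how much these libraries vary, which may be technical.

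Chromatin regulators act mostly as multi-subunit machines. SWI/SNF complexes use ATP to slide or evict nucleosomes, NuRD couples a CHD remodeller to histone deacetylases, SIN3 and CoREST bring deacetylases and demethylases to promoters, and Polycomb repressive complex 2 methylates histone H3 at silenced genes. BCL11A is known from work in blood cells to recruit NuRD and other corepressors, and BCL11A itself has been placed among proteins associated with SWI/SNF.

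The expression table gives a value for a gene in a knockdown group only where the authors listed it as changed against siNS, so a missing value says nothing about the level. Levels are in RPKM (read numbers scaled by gene length and library size). Changes were estimated with limma as the difference between group averages of log2(RPKM + 1), which understates the change of low genes. A gene was called at a Benjamini-Hochberg adjusted p under 0.05. Effective library sizes were 20.04 to 34.9 M reads (M, mega) in the 9 libraries where they could be worked out, and the other libraries (siBCL11A 3 and siMBNL1 3) each have 2 possible sizes. MBNL1 stood at 3.17, 3.52 and 2.55 RPKM in the siMBNL1 libraries and at 3.53, 3.65 and 3.56 RPKM in siB/siM, against 10.2 and 9.77 RPKM in siNS. In siBCL11A it was at 27.7, 27.5 and 27.6 RPKM, above both siNS libraries. The table gives no value for BCL11A, so the knockdown of that gene could not be checked. Of 7 genes chosen to mark this line, 4 had values. The mesenchymal gene VIM was at 899 RPKM or more in every library and was called higher in each knockdown (log2 changes of 0.23 in siBCL11A, 0.37 in siMBNL1 and 0.23 in siB/siM). CAV1 was called higher in siBCL11A (0.23) and lower in siMBNL1 (-0.49), while CAV1 in siB/siM (-0.18), CD44 in siBCL11A (-0.24) and siB/siM (-0.23) and MSN in siB/siM (-0.15) were not called. Of 5 epithelial and receptor markers, 2 had values. EPCAM averaged 4.94 RPKM in siBCL11A and 6.28 RPKM in siB/siM, against 8.93 RPKM in siNS, and was called lower in both (-0.74 and -0.45). ERBB2 was called lower in siMBNL1 (-0.22) and not called in siB/siM (0.19). The summed level of 5 proliferation genes was 575 to 591 RPKM in siBCL11A, 632 to 688 in siMBNL1 and 610 to 636 in siB/siM, against 366 to 374 RPKM in siNS. For 3 of 5 immune markers with values (CD14, CD68 and CSF1R) the sum was 27.8 to 31.5, 33.3 to 38.8 and 26.7 to 28.3 RPKM in the same order of knockdowns, against 60.6 to 62.4 RPKM in siNS. PDGFRB and COL1A1, the 2 of 6 endothelial and fibroblast markers with values, summed to at most 1.68 RPKM in the knockdowns, against 4.61 to 5.28 RPKM in siNS. All samples are 1 cell line, so the immune, endothelial and fibroblast genes are read as levels in these cells, not as numbers of other cell types. For any of these sums, fewer cells with the RNA and less RNA per cell cannot be told apart in bulk RNA. The proliferation, immune, and endothelial and fibroblast sums differ from siNS in each knockdown, as the members described here do, and their part in the members' changes was not tested.

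Members called higher outnumbered those called lower in each of the 3 knockdowns, and the changes were small. SETD8, RBBP8, EZH2, BRD9 and CHD7 were among those that rose, and SIN3B, BRD3, KDM4B and KDM1B among those that fell. In siBCL11A 39 members had values, of which 23 were called higher and 15 lower than in siNS, where 89.2% of all 5360 listed genes were called (42.3% higher and 46.9% lower). The siMBNL1 block held 33 members, with 18 called higher and 12 lower, against 94.3% of 4690 genes called (45.2% higher and 49.1% lower). For siB/siM 58 members had values, with 33 called higher and 13 lower, against 86.9% of 6700 genes called (51.3% higher and 35.5% lower). These shares mostly reflect how the table was made, since only genes that had passed a test against siNS are in it, and nothing about the members is read from the share called. The same selection favours small p-values against siNS, calls that stand, and libraries that do not overlap those of siNS. Members without a call, such as ARID1A in siB/siM, did not overlap siNS either. For single members below, these are therefore descriptions, and the share of all genes without overlap was not worked out. The median log2 change of the members was 0.26 in siBCL11A and 0.23 in siMBNL1, beside -0.22 and -0.25 over all listed genes, and it was 0.26 in siB/siM, beside 0.24. Genes that did not pass a test against siNS are left out, so a median takes the sign of the more numerous direction. The opposite signs follow the shares called higher, 59% and 54.5% of members beside 42.3% and 45.2% of all listed genes. They are not read as a typical difference in size. The 3 comparisons share the 2 siNS libraries, so they are not independent of each other. Without siNS library 1 the calls fell to 10 higher and 6 lower in siMBNL1, and to 19 higher and 8 lower in siB/siM.

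The changes were small in size. An absolute log2 change of at least 0.5 in some knockdown was reached by 17 members (26.2%), beside 40.5% of all listed genes. On this log2(RPKM + 1) scale SETD8 alone among the members reached 1 (1.54%), beside 6.27% of all genes, although MBD5, a low gene, had a ratio of mean RPKM of 0.496 between siBCL11A and siNS. Across members the median of the largest absolute change was 0.36, beside 0.44 for all genes. The calls were repeated under 8 alternative settings and with each of the 11 libraries left out in turn. A call that stood under all of these is described as held below, and 23 of 38 calls held for siBCL11A, 15 of 30 for siMBNL1 and 19 of 46 for siB/siM. Levels in siNS reached from 1.08 RPKM for MBD5 to 75 RPKM for KDM1A, with a median of 9.78 RPKM, beside 10.5 RPKM over all listed genes.

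**Figure D1:**
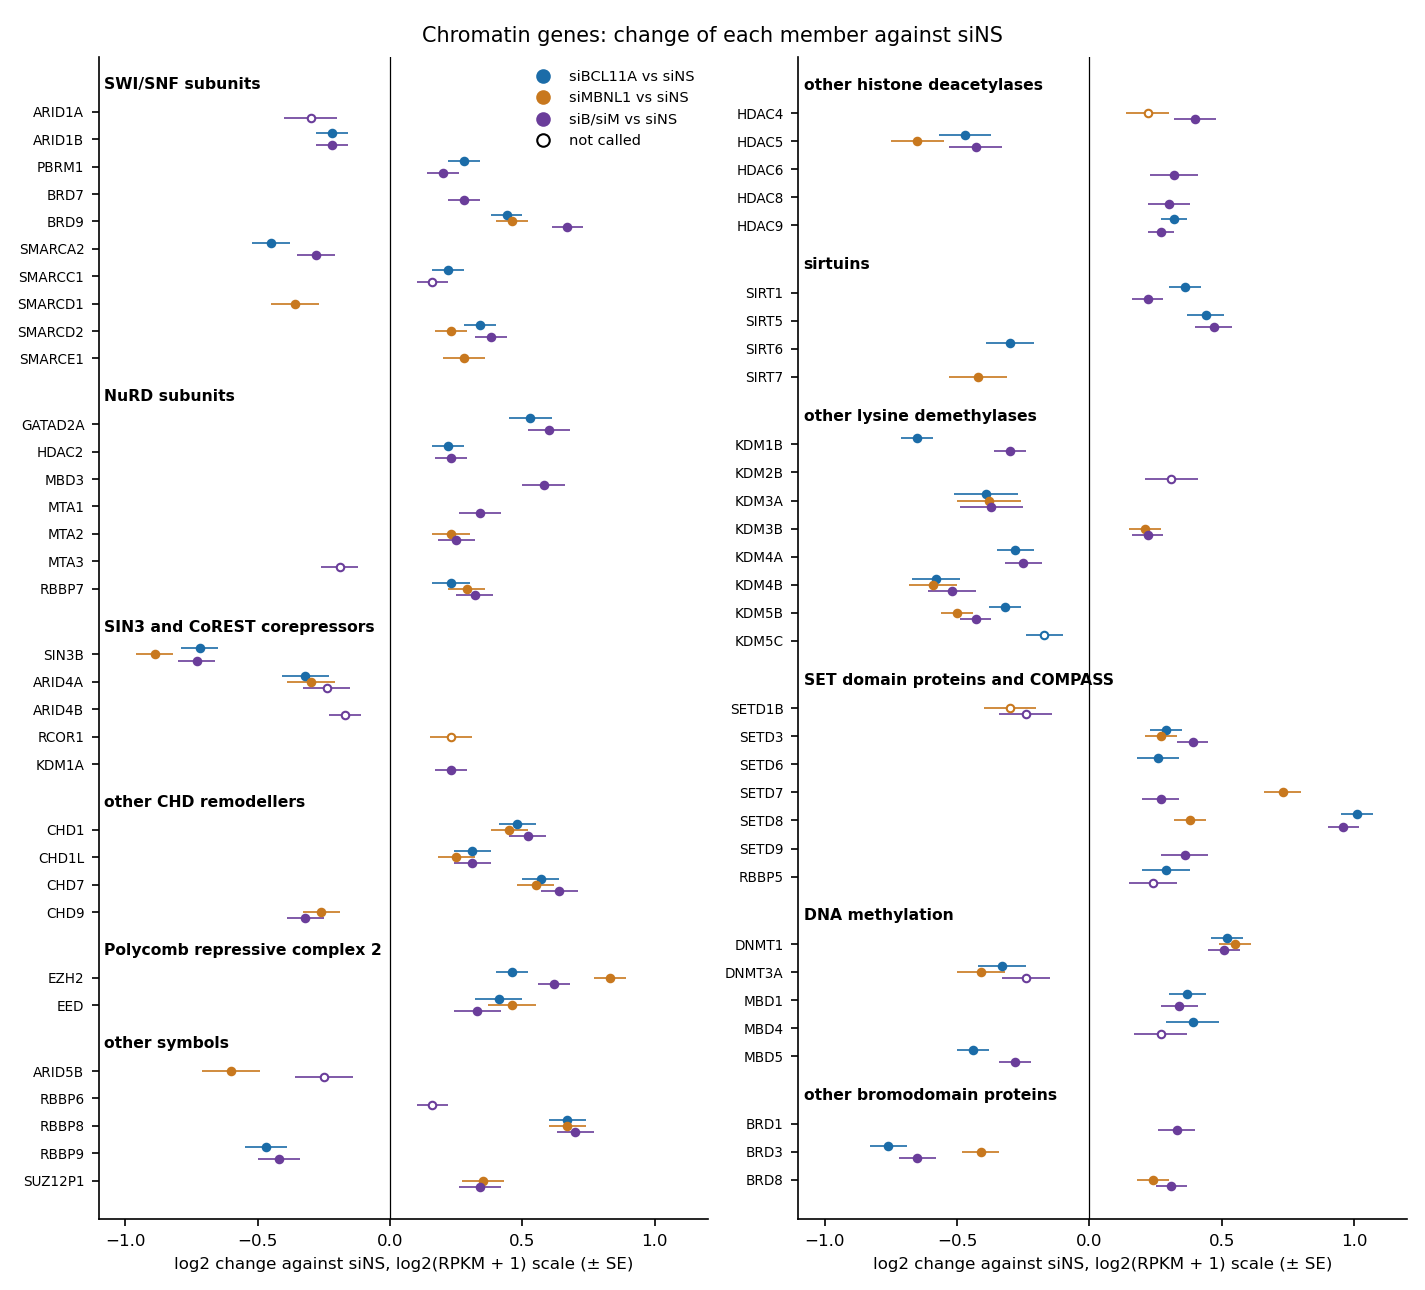
Log2 change against siNS on the log2(RPKM + 1) scale (horizontal axis, bars show the SE) for each of the 65 members, grouped by role, in siBCL11A, siMBNL1 and siB/siM. Filled points were called at an adjusted p under 0.05 and open points were not; lysine demethylases and SIN3B lie mainly to the left of 0, and NuRD, CHD and Polycomb members mainly to the right.

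NuRD subunits lay above siNS wherever they were called. Of 7 subunits with values in siB/siM, 6 were called higher and none lower, and the 3 with values in siBCL11A and the 2 in siMBNL1 were all called higher. Of all listed genes 51.3%, 42.3% and 45.2% were called higher in siB/siM, siBCL11A and siMBNL1. With so few subunits, nothing is read from these counts. GATAD2A, the zinc-finger protein that bridges the MBD subunit and the remodeller, had 28.2, 29.9 and 32.2 RPKM in siBCL11A, and in siB/siM 28.8, 34.0 and 32.5 RPKM, against 20.7 and 20.4 RPKM in siNS. Every knockdown library lay above both control libraries, with log2 changes of 0.53 ± 0.08 (SE, adjusted p = 0.000734) and 0.60 ± 0.08 (adjusted p = 0.000309), both of which held. MBD3, the methyl-CpG-binding family member of NuRD, had 42.7, 49.4 and 50.7 RPKM in siB/siM, against 31.8 and 31.0 RPKM in siNS, a log2 change of 0.58 ± 0.08 (SE, adjusted p = 0.00117) that held.

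The other NuRD changes were smaller and less firm. The deacetylase HDAC2 was at 34.1, 34.2 and 32.7 RPKM in siBCL11A, and siB/siM had 34.8, 33.4 and 33.4 RPKM, against 28.7 and 28.9 RPKM in siNS (log2 changes of 0.22 and 0.23). The histone chaperone RBBP7 was called higher in all 3 knockdowns, with log2 changes of 0.23 in siBCL11A, 0.29 in siMBNL1 and 0.32 in siB/siM. MTA2 averaged 80.6 ± 5.59 RPKM in siMBNL1 and 82.0 ± 1.16 RPKM in siB/siM, against 68.7 ± 1.75 RPKM in siNS (SD, n = 3, 3 and 2). MTA3 alone lay below siNS, at 5.20, 4.60 and 4.70 RPKM in siB/siM, against 5.62 and 5.68 RPKM in siNS, and was not called (adjusted p = 0.0924). Calls of HDAC2 ended without siNS library 1 or 2, and in siBCL11A also without its library 2 (adjusted p 0.0615 to 0.103). RBBP7 lost its call without siNS library 1 in each comparison, and in siBCL11A also without its library 3 (adjusted p 0.0544 to 0.342). For MTA2 the call in siMBNL1 ended without any one of 7 libraries, siNS libraries 1 and 2, siMBNL1 libraries 1 and 3 and the 3 siB/siM libraries among them (adjusted p 0.0581 to 0.288). Its call in siB/siM ended without siNS library 1 or 2 or siB/siM library 2 or 3 (adjusted p 0.0511 to 0.146).

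MTA1, which anchors the deacetylase in NuRD, was the member with both a level and a listed exon. Its level was 20, 21.6 and 21.5 RPKM in siB/siM, against 17.7 and 15.3 RPKM in siNS, a log2 change of 0.34 ± 0.08 (SE, adjusted p = 0.0146). That call did not stand without siNS library 2 (adjusted p = 0.136). The authors' lists of cassette exons, which are exons either kept or skipped, give the inclusion level as a fraction, with 1 value per group and no spread between libraries. The MTA1 exon of 51 bases at chr14:105915696-105915746 (hg19, plus strand) had an inclusion of 0.397 in siBCL11A, 0.547 in siMBNL1 and 0.496 in siB/siM, against 0.733 in siNS. It was the only exon of a member with a level in the expression table, and it was listed in all 3 knockdowns. Its difference of -0.336 in siBCL11A was the 10th largest of 107 exons in that list. In siMBNL1 the difference of -0.185 was the 55th of 110, and in siB/siM the difference of -0.236 was the 43rd of 146. The smallest shift fell in the group in which MBNL1 alone was targeted, although no test of that order is possible.

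The sequence of this exon is shown because it is the stretch whose presence in the message differs between groups. It was read from GENCODE v29 transcripts (GRCh38), where the exon and both flanking introns (3847 and 648 bases) have the lengths given in the authors' list. Capitals mark the exon, and the 25 bases on each side in lower case are the neighbouring exons as spliced.
MTA1 exon: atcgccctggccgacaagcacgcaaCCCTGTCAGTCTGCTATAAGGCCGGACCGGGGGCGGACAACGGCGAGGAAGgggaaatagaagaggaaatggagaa
In 3 of the 4 matching transcripts the exon is coding, and in the one read here it is exon 4 of 21. Its length is a multiple of 3, so skipping it keeps the reading frame. MBNL proteins are known to bind short RNA motifs with GC between pyrimidines. On the sense strand the exon holds the letters TGCT at 1 place, and it lacks the letters TGCC as well as the letters CGCT and, last, the letters CGCC. At least 1 of these 4 motifs is held by 40.3% of 929 internal exons of 51 bases. Only the exon was searched, and the introns on either side of it were not.

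SETD5, a SET domain protein with no level in the expression table, was the only other gene matching the name rule with a listed exon. Its exon of 57 bases at chr3:9510203-9510259 (hg19, plus strand) had an inclusion of 0.136 in siMBNL1, against 0.297 in siNS, a difference of -0.161 that was the 73rd largest of 110. The other lists do not hold it. It is shown for comparison with the MTA1 exon, with the same use of capitals.
SETD5 exon: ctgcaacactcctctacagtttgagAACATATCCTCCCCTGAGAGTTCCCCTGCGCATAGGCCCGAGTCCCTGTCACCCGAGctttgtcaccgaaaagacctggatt
None of the 4 motifs is in these letters on the sense strand, and 46.6% of 1032 internal exons of 57 bases hold at least 1. The introns beside the SETD5 exon were not searched.

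**Figure D2:**
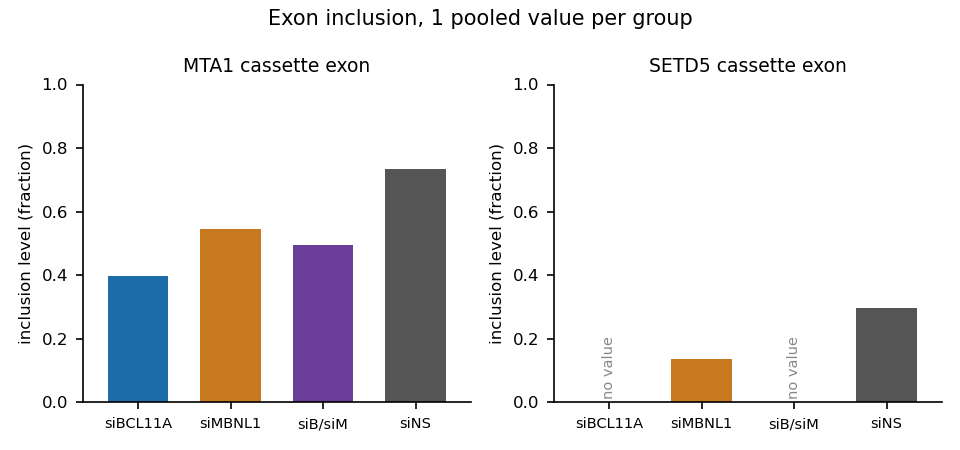
Inclusion level (fraction, vertical axis) of the MTA1 and SETD5 cassette exons in siBCL11A, siMBNL1, siB/siM and siNS, 1 pooled value per group with no error. The MTA1 bars stand at 0.397, 0.547 and 0.496 in the knockdowns, against 0.733 in siNS; the SETD5 exon has values for siMBNL1 (0.136) and siNS (0.297) only.

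SWI/SNF subunits went in both directions. In siBCL11A 4 of 6 were called higher and 2 lower, in siMBNL1 3 of 4 higher and 1 lower, and in siB/siM 4 of 8 higher and 2 lower. Of all listed genes 42.3%, 45.2% and 51.3% were called higher in these comparisons, and 46.9%, 49.1% and 35.5% lower. BRD9, the bromodomain subunit of the non-canonical BAF complex, had 21.4, 22.8 and 23.1 RPKM in siBCL11A, 23.1, 21.9 and 23 RPKM in siMBNL1 and 26.6, 26.5 and 26.1 RPKM in siB/siM, against 15.3 and 17.1 RPKM in siNS. The siB/siM libraries lay above all others and the siNS libraries below all others. Its log2 changes were 0.44 ± 0.06, 0.46 ± 0.06 and 0.67 ± 0.06 (SE, adjusted p = 0.00015, 0.000162 and 6.16e-06), and all 3 calls held. SMARCD2, a core subunit of BAF and PBAF, was called higher in all 3, with log2 changes of 0.34, 0.23 and 0.38. The call of SMARCD2 in siMBNL1 ended without siNS library 1, siNS library 2 or siMBNL1 library 1 (adjusted p 0.0592 to 0.199).

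SMARCA2, the BRM ATPase that powers the complex, fell. It stood at 9.03, 9.03 and 8.67 RPKM in siBCL11A, and siB/siM had 9.56, 9.72 and 11.3 RPKM, against 12.9 and 12.3 RPKM in siNS. The log2 change was -0.45 ± 0.07 in siBCL11A (SE, adjusted p = 0.00101), which held, and -0.28 ± 0.07 in siB/siM (adjusted p = 0.0164). The second of these ended without siNS library 1 or 2 or siB/siM library 1 or 2 (adjusted p 0.0547 to 0.133). PBRM1, which defines PBAF, was called higher in siBCL11A (log2 change 0.28, held) and in siB/siM (0.20), where the call ended without any of siNS libraries 1 and 2 and siB/siM libraries 1 and 2 (adjusted p 0.0821 to 0.168).

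The ARID subunits of BAF lay below siNS. ARID1B was at 1.39, 1.45 and 1.41 RPKM in siBCL11A, and siB/siM had 1.40, 1.38 and 1.46 RPKM, against 1.69 and 1.95 RPKM in siNS, with a log2 change of -0.22 in each. Those calls ended without siNS library 2, and also without siBCL11A library 1 or 3 or siB/siM library 2 (adjusted p 0.0591 to 0.298). ARID1A, at 3.45, 3.90 and 3.48 RPKM in siB/siM, against 5.36 and 4.02 RPKM in siNS, was not called (adjusted p = 0.0841). BRD7 of PBAF had a log2 change of 0.28 in siB/siM, and its call ended without siNS library 1 or 2 (adjusted p 0.0656 to 0.0801).

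Among the remaining subunits, SMARCC1 had a log2 change of 0.22 in siBCL11A and, not called, 0.16 in siB/siM. In siMBNL1 SMARCE1 had one of 0.28 and SMARCD1 one of -0.36. These calls ended without single libraries. For SMARCC1 they were siNS 1, siNS 2, siBCL11A 1 and siBCL11A 3 (adjusted p 0.0604 to 0.131). SMARCE1 lost its call without siNS 1, siNS 2, siMBNL1 1 or siMBNL1 2 (adjusted p 0.0793 to 0.367), and SMARCD1 without siNS 1, siMBNL1 2 or siMBNL1 3 (adjusted p 0.0865 to 0.271). The table gives no value for the other ATPase SMARCA4, for SMARCB1 or for SMARCC2. Nor does it for the NuRD proteins CHD3, CHD4, HDAC1, RBBP4, MBD2 and GATAD2B, for SIN3A, or for EZH1 and SUZ12.

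SIN3B, a scaffold of the SIN3 deacetylase corepressor, showed the largest fall of any member in siMBNL1. It was at 8.68, 8.79 and 9.68 RPKM in siBCL11A, 8.29, 7.73 and 7.66 RPKM in siMBNL1 and 8.38, 9.04 and 9.38 RPKM in siB/siM, against 15.7 and 15.4 RPKM in siNS. Both control libraries stood above the 9 knockdown libraries. The log2 changes were -0.72 ± 0.07 in siBCL11A, -0.89 ± 0.07 in siMBNL1 and -0.73 ± 0.07 in siB/siM (SE, adjusted p = 6.73e-06, 1.89e-06 and 5.42e-06), and all held. The SIN3-associated ARID4A was called lower in siBCL11A (log2 change -0.32) and siMBNL1 (-0.30), and stood at -0.24 in siB/siM without a call. Its calls ended without siNS library 1 or siBCL11A library 3 in siBCL11A, and without siNS library 1, siNS library 2 or siMBNL1 library 3 in siMBNL1 (adjusted p 0.0583 to 0.305). ARID4B had 7.62, 7.83 and 8.02 RPKM in siB/siM, against 8.75 and 9.08 RPKM in siNS, and was not called (adjusted p = 0.0963).

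The CoREST pair lay above siNS. KDM1A, the LSD1 demethylase and the most abundant member, had 86.5, 89.7 and 87.9 RPKM in siB/siM, against 73.8 and 76.1 RPKM in siNS (log2 change 0.23 ± 0.06, SE, adjusted p = 0.025). The call ended without siNS library 1 or 2 or siB/siM library 2 or 3 (adjusted p 0.0673 to 0.17). RCOR1, the CoREST scaffold, was at 16.1, 14.9 and 13.7 RPKM in siMBNL1, against 13 and 12 RPKM in siNS, and was not called (adjusted p = 0.107).

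Both members grouped here under Polycomb repressive complex 2 rose in all 3 knockdowns. Each member is counted in a single role group, also where a subunit such as RBBP7, counted under NuRD, is shared between complexes. EZH2, the catalytic subunit, was at 23.6, 24.2 and 22.3 RPKM in siBCL11A, 30.7, 31.8 and 28.3 RPKM in siMBNL1 and 26.2, 26.2 and 25.7 RPKM in siB/siM, against 16.5 and 16.7 RPKM in siNS. The 4 groups did not overlap, with siMBNL1 highest and siNS lowest. The log2 changes were 0.46 ± 0.06, 0.83 ± 0.06 and 0.62 ± 0.06 (SE, adjusted p = 0.000108, 1.94e-06 and 1.19e-05), and all 3 held. EED, the subunit that reads the methyl mark, had 17.1, 16.4 and 16.9 RPKM in siBCL11A, 17.2, 18.5 and 16.6 RPKM in siMBNL1 and 18.3, 15.7 and 13.9 RPKM in siB/siM, against 12.6 and 12.2 RPKM in siNS. Its log2 changes were 0.41, 0.46 and 0.33, of which the last ended without siNS library 1 or 2 (adjusted p 0.0678 to 0.114). The pseudogene SUZ12P1, whose reads could be shared with SUZ12, had log2 changes of 0.35 in siMBNL1 and 0.34 in siB/siM, and both calls ended without siNS library 2 (adjusted p 0.143 to 0.166).

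DNA methylation genes went in both directions. DNMT1, the maintenance methyltransferase that copies methylation after replication, had 67.4, 66.7 and 69.1 RPKM in siBCL11A, 71.7, 70.3 and 65.2 RPKM in siMBNL1 and 63.9, 68.8 and 69.1 RPKM in siB/siM, against 45.9 and 47.9 RPKM in siNS. The knockdown groups overlapped each other and lay above siNS, with log2 changes of 0.52 ± 0.06, 0.55 ± 0.06 and 0.51 ± 0.06 (SE, adjusted p = 4.58e-05, 4.42e-05 and 5.12e-05) that held. DNMT3A, which sets new methylation, averaged 1.09, 0.974 and 1.23 RPKM in the 3 knockdowns in that order, against 1.64 RPKM in siNS. It was called lower in siBCL11A (log2 change -0.33) and siMBNL1 (-0.41), not in siB/siM (-0.24). The DNMT3A calls ended without siNS library 1, and in siBCL11A also without its library 1 (adjusted p 0.0573 to 0.288).

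The MBD readers outside NuRD also differed among themselves. MBD5, the lowest member in siNS, was at 0.487, 0.592 and 0.525 RPKM in siBCL11A, and siB/siM had 0.752, 0.686 and 0.711 RPKM, against 1.15 and 1.01 RPKM in siNS. Its log2 change was -0.44 ± 0.06 in siBCL11A (SE, adjusted p = 0.000342, held) and -0.28 ± 0.06 in siB/siM, where it ended without siNS library 1 (adjusted p = 0.0809). At these levels the added 1 RPKM damps the change, and the ratio of mean RPKM was 0.496 in siBCL11A. MBD1, which binds methylated CpG, had log2 changes of 0.37 in siBCL11A (held) and 0.34 in siB/siM, which ended without siNS library 1 (adjusted p = 0.0542). MBD4, a repair glycosylase, had one of 0.39 in siBCL11A, which ended without siNS library 1 (adjusted p = 0.151), and one of 0.27 in siB/siM without a call.

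The promoters of the members were searched for E2F-type letters, because DNMT1 and EZH2 are known targets of the cell cycle factor E2F. The search was chosen with the changes of these genes known, and a part of E2F in them was not tested. The letters were TTTCCCGC, TTTCGCGC, TTTGCCGC and TTTGGCGC, on both strands, in the 250 bases before and 50 after the RefSeq start (GRCh38.p14). Among the 59 promoters of members, 5 (8.47%) had a match (BRD7, DNMT1, EZH2, KDM1B and SIRT6), beside 4.44% of 15843 promoters of protein-coding genes. Of these 5 genes, KDM1B and SIRT6 were called lower. Among the 11 promoters of members called higher in all 3 knockdowns, 2 (18.2%) had a match, DNMT1 and EZH2. Those of the others, SETD8, RBBP8 and BRD9 among them, had none. DNMT1 and EZH2 prompted the search, so nothing is read from the shares that include them. The 15843 promoters also cover genes without values here, and the share over listed genes was not worked out. None of the 5 promoters of members called lower in all 3 had a match. The DNMT1 and EZH2 promoters are printed on the gene's strand with the match in capitals, for DNMT1 from chr19:10194904-10195203 and for EZH2 from chr7:148884242-148884541, both on the minus strand.
DNMT1 promoter: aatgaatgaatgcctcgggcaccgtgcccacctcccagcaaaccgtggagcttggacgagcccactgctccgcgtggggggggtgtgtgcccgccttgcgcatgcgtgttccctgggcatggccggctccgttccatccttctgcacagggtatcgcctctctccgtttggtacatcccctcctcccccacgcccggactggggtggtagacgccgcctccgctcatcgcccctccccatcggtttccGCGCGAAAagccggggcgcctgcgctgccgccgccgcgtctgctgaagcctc
EZH2 promoter: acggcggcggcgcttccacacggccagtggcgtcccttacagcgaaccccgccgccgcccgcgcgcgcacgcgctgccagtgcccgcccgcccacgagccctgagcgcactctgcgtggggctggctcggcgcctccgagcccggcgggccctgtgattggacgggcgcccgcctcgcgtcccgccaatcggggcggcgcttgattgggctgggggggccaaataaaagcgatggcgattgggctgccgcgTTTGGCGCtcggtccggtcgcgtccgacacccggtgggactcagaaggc
A match is a description of the letters and not a bound site.

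The CHD remodellers outside NuRD rose, except CHD9. CHD7, a remodeller of enhancers, was at 3.68, 3.65 and 3.97 RPKM in siBCL11A, 3.95, 3.74 and 3.38 RPKM in siMBNL1 and 4.09, 3.82 and 4.11 RPKM in siB/siM, against 2.33 and 2.08 RPKM in siNS. Its log2 changes of 0.57, 0.55 and 0.64 (SE 0.07 each, adjusted p = 4.44e-05, 8.76e-05 and 1.74e-05) held. CHD1, which reads methylated histone H3 at active genes, averaged 28.8, 28.3 and 29.7 RPKM, against 20.4 RPKM in siNS, with log2 changes of 0.48, 0.45 and 0.52 that held. CHD1L, a remodeller activated by poly(ADP-ribose), had log2 changes of 0.31, 0.25 and 0.31. Its calls ended without siNS library 1, and in siMBNL1 also without siMBNL1 library 1 or 2 (adjusted p 0.0519 to 0.323). CHD9 was called lower in siMBNL1 (log2 change -0.26) and siB/siM (-0.32). Those calls ended without siNS library 1, and in siMBNL1 also without siNS library 2 or siMBNL1 library 1 or 3 (adjusted p 0.0702 to 0.223).

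Most KDM lysine demethylases outside CoREST that had values were called lower. They numbered 5 of 6 in siBCL11A with none higher, 3 of 4 in siMBNL1 with 1 higher, and 5 of 7 in siB/siM with 1 higher. Of all listed genes 46.9%, 49.1% and 35.5% were called lower in these comparisons. KDM5B, which removes methyl groups from lysine 4 of histone H3, was at 20.3, 18.8 and 18.9 RPKM in siBCL11A, 17.2, 17.1 and 16.4 RPKM in siMBNL1 and 17.5, 17.9 and 18.1 RPKM in siB/siM, against 25 and 23.7 RPKM in siNS. The log2 changes were -0.32 ± 0.06, -0.50 ± 0.06 and -0.43 ± 0.06 (SE, adjusted p = 0.00105, 4.66e-05 and 0.000105), and all held. KDM4B, a histone H3 lysine 9 demethylase, had 3.61, 3.94 and 4.47 RPKM in siBCL11A, 4.07, 3.63 and 4.22 RPKM in siMBNL1 and 3.82, 4.19 and 4.60 RPKM in siB/siM, against 6.71 and 6.23 RPKM in siNS. Its log2 changes of -0.58, -0.59 and -0.52 (SE 0.09 each) held.

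KDM1B, the LSD2 demethylase, was listed in 2 knockdowns. It had 3.78, 3.75 and 4.24 RPKM in siBCL11A, and siB/siM had 5.16, 5.33 and 5.30 RPKM, against 6.57 and 6.89 RPKM in siNS, so that siB/siM lay between the other groups. The log2 change was -0.65 ± 0.06 in siBCL11A (SE, adjusted p = 3.36e-05, held) and -0.30 ± 0.06 in siB/siM, where it was lost without siNS library 2 (adjusted p = 0.0533). KDM3A, called lower in all 3 knockdowns with log2 changes between -0.39 and -0.37, had the largest SE of the members (0.12). In siMBNL1 its libraries were at 11.8, 11.4 and 8.09 RPKM. Each KDM3A call ended without one or more of 5 libraries in siBCL11A, 9 in siMBNL1 and 5 in siB/siM, siNS libraries 1 and 2 among them each time (adjusted p 0.0502 to 0.244). KDM4A was called lower in siBCL11A (log2 change -0.28) and siB/siM (-0.25), and the calls ended without siNS library 2, and in siB/siM also without any of its own 3 libraries (adjusted p 0.0537 to 0.254).

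Among the members, KDM3B was the demethylase outside CoREST that was called higher, with log2 changes of 0.21 in siMBNL1 and 0.22 in siB/siM. These ended without siNS library 1 or 2, siMBNL1 library 1 or 2, or siB/siM library 2 or 3, by comparison (adjusted p 0.0615 to 0.262). KDM5C was at 19.4, 20.8 and 21.4 RPKM in siBCL11A, against 23.4 and 23 RPKM in siNS, and was not called (adjusted p = 0.151). KDM2B had a log2 change of 0.31 in siB/siM without a call (adjusted p = 0.0638).

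SET domain proteins and the COMPASS subunit RBBP5 lay above siNS wherever they were called (4 of 4 in siBCL11A, 3 of 4 in siMBNL1 and 4 of 6 in siB/siM). Of all listed genes 42.3%, 45.2% and 51.3% were called higher in these comparisons. SETD8, also named KMT5A and known to place a single methyl group on histone H4 in dividing cells, changed most of all members. It had 19.4, 19.8 and 20.3 RPKM in siBCL11A, 13, 12.5 and 11.8 RPKM in siMBNL1 and 19, 18.7 and 19.3 RPKM in siB/siM, against 9.32 and 9.30 RPKM in siNS. The siBCL11A and siB/siM libraries lay close together and apart from siMBNL1, which was itself above siNS. The log2 changes were 1.01 ± 0.06, 0.38 ± 0.06 and 0.96 ± 0.06 (SE, adjusted p = 1.4e-07, 0.000317 and 2.18e-07), all held, and the ratio of mean RPKM was 2.13 in siBCL11A. RefSeq lists 3 pseudogenes named after this gene, and reads shared with them could not be separated here.

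SETD7, a lysine monomethyltransferase, had its highest level in siMBNL1, at 19.1, 20.5 and 18.3 RPKM, and was at 13.7, 14.1 and 13.3 RPKM in siB/siM, against 10.9 and 11.5 RPKM in siNS. The log2 changes were 0.73 ± 0.07 in siMBNL1 (SE, adjusted p = 2.66e-05, held) and 0.27 ± 0.07 in siB/siM, where it was lost without siNS library 1 (adjusted p = 0.123). The table gives no value for SETD7 in siBCL11A. SETD3, known as an actin histidine methyltransferase, was called higher in all 3 knockdowns, with log2 changes of 0.29, 0.27 and 0.39. The first 2 of these calls ended without siNS library 1 (adjusted p 0.0655 to 0.101) and that in siB/siM held. SETD6 (0.26 in siBCL11A), SETD9 (0.36 in siB/siM) and RBBP5 (0.29 in siBCL11A) were called higher in 1 knockdown each. These 3 calls ended without 3 to 5 single libraries, siNS library 1 or 2 among them (adjusted p 0.0522 to 0.532). SETD1B, a COMPASS methyltransferase, had log2 changes of -0.30 in siMBNL1 and -0.24 in siB/siM without a call.

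Deacetylases outside NuRD differed by member. HDAC5, a class IIa enzyme that shuttles between nucleus and cytoplasm, was at 4.57, 4.34 and 4.10 RPKM in siBCL11A, 4.42, 3.48 and 3.27 RPKM in siMBNL1 and 4.52, 4.29 and 4.62 RPKM in siB/siM, against 6.92 and 5.87 RPKM in siNS. Its log2 change was -0.65 ± 0.10 in siMBNL1 (SE, adjusted p = 0.000346), which held, and -0.47 and -0.43 in siBCL11A and siB/siM, where it ended without siNS library 1 (adjusted p 0.058 to 0.0855). HDAC9, of the same class, had log2 changes of 0.32 in siBCL11A and 0.27 in siB/siM, and both held. HDAC4 (0.40), the tubulin deacetylase HDAC6 (0.32) and HDAC8 (0.30) were called higher in siB/siM. Each of these ended without siNS library 1, and HDAC6 and HDAC8 also without any of the 3 siB/siM libraries (adjusted p 0.0519 to 0.282).

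The sirtuins are deacylases that use NAD. SIRT5, which acts in mitochondria, had 2.43, 2.43 and 2.48 RPKM in siBCL11A, and siB/siM had 2.57, 2.66 and 2.29 RPKM, against 1.45 and 1.63 RPKM in siNS, with log2 changes of 0.44 and 0.47 that held. SIRT1 had log2 changes of 0.36 in siBCL11A (held) and 0.22 in siB/siM, which ended without siNS library 2 or siB/siM library 1 or 3 (adjusted p 0.0847 to 0.32). SIRT6 and SIRT7, both nuclear, were lower, SIRT6 by a log2 change of -0.30 in siBCL11A and SIRT7 by one of -0.42 in siMBNL1. SIRT6 lost its call without siNS library 2 or any siBCL11A library, and SIRT7 without siNS library 1 or 2 (adjusted p 0.0512 to 0.362).

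BRD3, a BET bromodomain protein that binds acetylated histones, fell most in siBCL11A. It was at 3.49, 3.81 and 3.78 RPKM in siBCL11A, 5.19, 4.91 and 4.80 RPKM in siMBNL1 and 3.78, 4.02 and 4.37 RPKM in siB/siM, against 7.29 and 6.62 RPKM in siNS. The log2 changes were -0.76 ± 0.07, -0.41 ± 0.07 and -0.65 ± 0.07 (SE, adjusted p = 4.98e-06, 0.000698 and 1.57e-05), and all held. BRD8, a subunit of the TIP60 acetyltransferase complex, had log2 changes of 0.24 in siMBNL1 and 0.31 in siB/siM. The call in siMBNL1 ended without siNS library 1 or 2 (adjusted p 0.0551 to 0.113) and that in siB/siM held. BRD1, a scaffold of histone acetyltransferases, had one of 0.33 in siB/siM that ended without siNS library 1 (adjusted p = 0.0887).

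Members placed in none of the role groups above moved as well. RBBP8, also named CtIP, starts the trimming of broken DNA ends. It had 49.4, 47.5 and 46.8 RPKM in siBCL11A, 49.1, 50.8 and 43.8 RPKM in siMBNL1 and 49.9, 48.6 and 48.3 RPKM in siB/siM, against 29.4 and 30.2 RPKM in siNS. The 3 knockdowns overlapped, and their log2 changes of 0.67, 0.67 and 0.70 (SE 0.07 each, adjusted p = 1.12e-05, 1.61e-05 and 7.69e-06) held. RBBP9, a serine hydrolase, was called lower in siBCL11A (log2 change -0.47) and siB/siM (-0.42), and both held. ARID5B had 1.45, 1.82 and 1.17 RPKM in siMBNL1 and 2.00, 2.36 and 2.06 RPKM in siB/siM, against 2.97 and 2.52 RPKM in siNS. It was called lower in siMBNL1 (-0.60 ± 0.11, SE, adjusted p = 0.00231, held) and not in siB/siM (-0.25). The ubiquitin ligase RBBP6, at 0.16 in siB/siM, was not called (adjusted p = 0.0892).

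**Figure D3:**
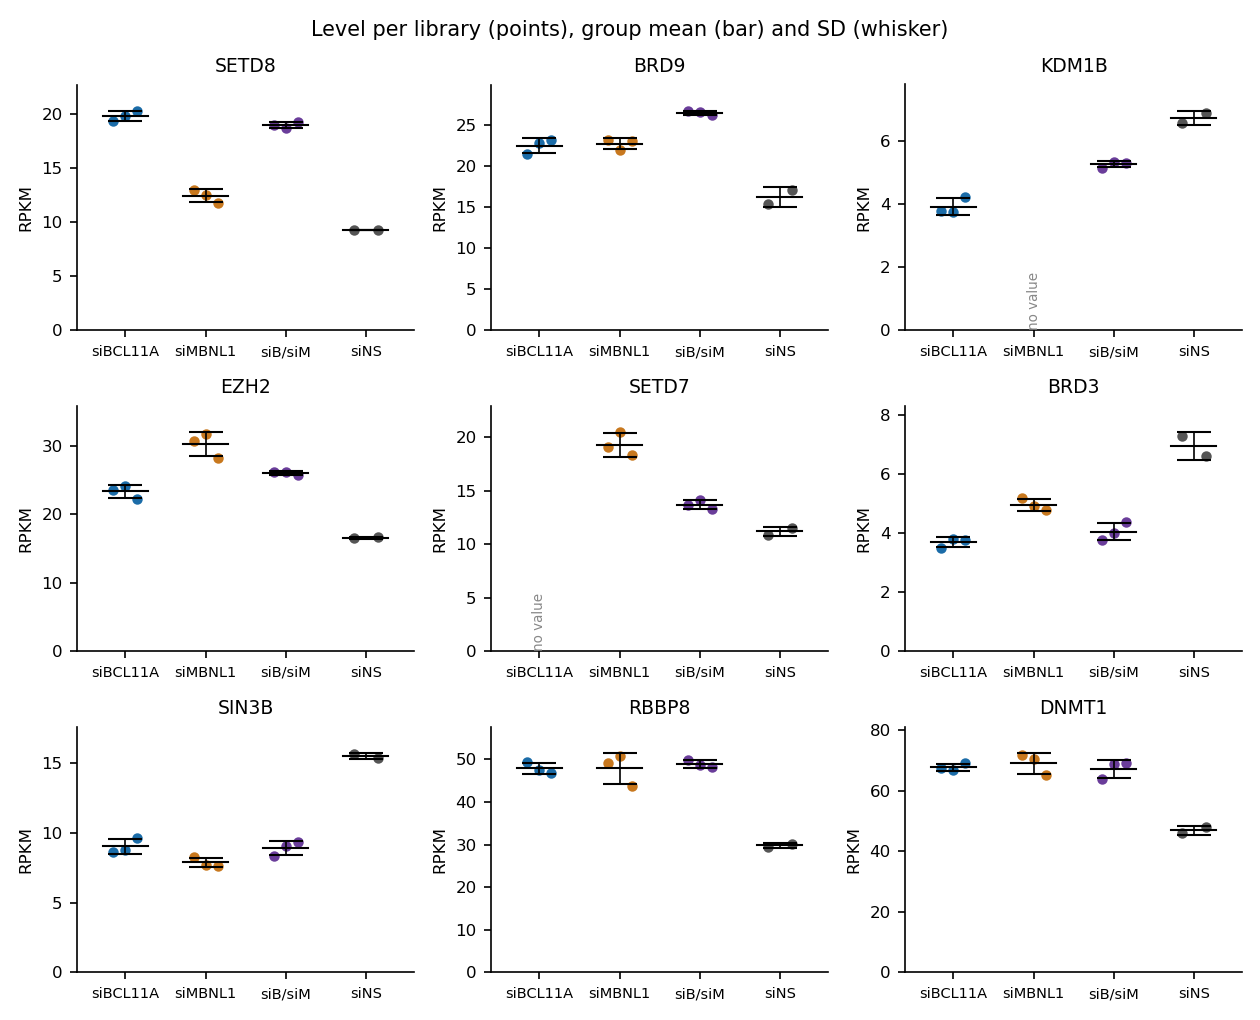
Level in RPKM (vertical axis, from 0) of 9 members in each library of siBCL11A, siMBNL1, siB/siM and siNS, with the group mean (bar) and SD (whisker). SETD8 is near 20 RPKM in siBCL11A and siB/siM and between 11.8 and 13 RPKM in siMBNL1, against 9.32 and 9.30 RPKM in siNS; the RBBP8 and DNMT1 knockdown groups overlap.

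Differences between the knockdowns do not use the siNS means, but the siNS libraries enter the estimate of spread, and a gene had to be listed against siNS in both groups to have values. Of the members, SETD8, EZH2, BRD3, SETD7 and KDM1B were called under every alternative in at least 1 comparison between knockdowns. Between siBCL11A and siMBNL1, 5 of 20 members were called, 3 higher and 2 lower, beside 34.1% of 3376 genes (14.2% higher and 19.8% lower). SETD8 was 0.63 ± 0.05 higher in siBCL11A than in siMBNL1 (log2, SE, adjusted p = 1.81e-06). EZH2 was lower in siBCL11A by a log2 difference of -0.36 ± 0.05 (SE, adjusted p = 0.000344), and BRD3 by -0.35 ± 0.06 (adjusted p = 0.000923). KDM5B and SIN3B were each 0.18 higher in siBCL11A (adjusted p = 0.0148 and 0.0378). The KDM5B call ended without siBCL11A library 1 (adjusted p = 0.0584). The SIN3B call ended without any one of siNS libraries 1 and 2, siBCL11A libraries 2 and 3, siMBNL1 libraries 2 and 3 or siB/siM library 2 (adjusted p 0.0507 to 0.142). The 15 members not called had differences between -0.06 and 0.18, each with an SE of at most 0.11.

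Between siB/siM and siBCL11A few genes of the whole table were called, and the members shared this. Of 36 members with values in both, limma called 2 higher and none lower in siB/siM (5.56%), beside 10.1% of 4511 genes (8.45% higher and 1.66% lower). At an unadjusted p under 0.05, 5 more members passed, KDM5B and SIRT1 lower and EZH2, MBD5 and SMARCA2 higher in siB/siM, and the 34 members not called differed by -0.14 to 0.17. KDM1B was higher in siB/siM than in siBCL11A by 0.35 ± 0.06 (log2, SE, adjusted p = 0.00826), which held. BRD9 was higher by 0.23 ± 0.05 (adjusted p = 0.0237), and that call ended without siBCL11A library 1 or 2 or any siB/siM library (adjusted p 0.0615 to 0.0853). It also ended with the libraries centred on their median.

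Against siMBNL1 alone, the double knockdown differed in 6 of 29 members, 3 higher and 3 lower, beside 25.3% of 3927 genes (15.4% higher and 9.93% lower). SETD8 was higher in siB/siM by 0.58 ± 0.05 (log2, SE, adjusted p = 9.34e-06) and SETD7 lower, with a difference of -0.47 ± 0.06 (adjusted p = 0.000371), and both held. ARID5B was higher in siB/siM by 0.35 ± 0.10 (adjusted p = 0.0252) and BRD9 by 0.21 ± 0.05 (adjusted p = 0.0151). BRD3 and EZH2 were lower, with differences of -0.24 ± 0.06 (adjusted p = 0.013) and -0.21 ± 0.05 (adjusted p = 0.016). These 4 calls each ended without single libraries, siMBNL1 1 or 3 or siB/siM 2 or 3 for ARID5B, siMBNL1 2 or siB/siM 2 for BRD9, siB/siM 1 for BRD3, and siMBNL1 2 or siB/siM 3 for EZH2 (adjusted p 0.0504 to 0.0879). The siRNA doses differ, at 50 nM of each siRNA in siB/siM and 100 nM in the single knockdowns, so dose and combination cannot be told apart when siB/siM is set against a single knockdown. The 23 members not called differed by -0.13 to 0.22.

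**Figure D4:**
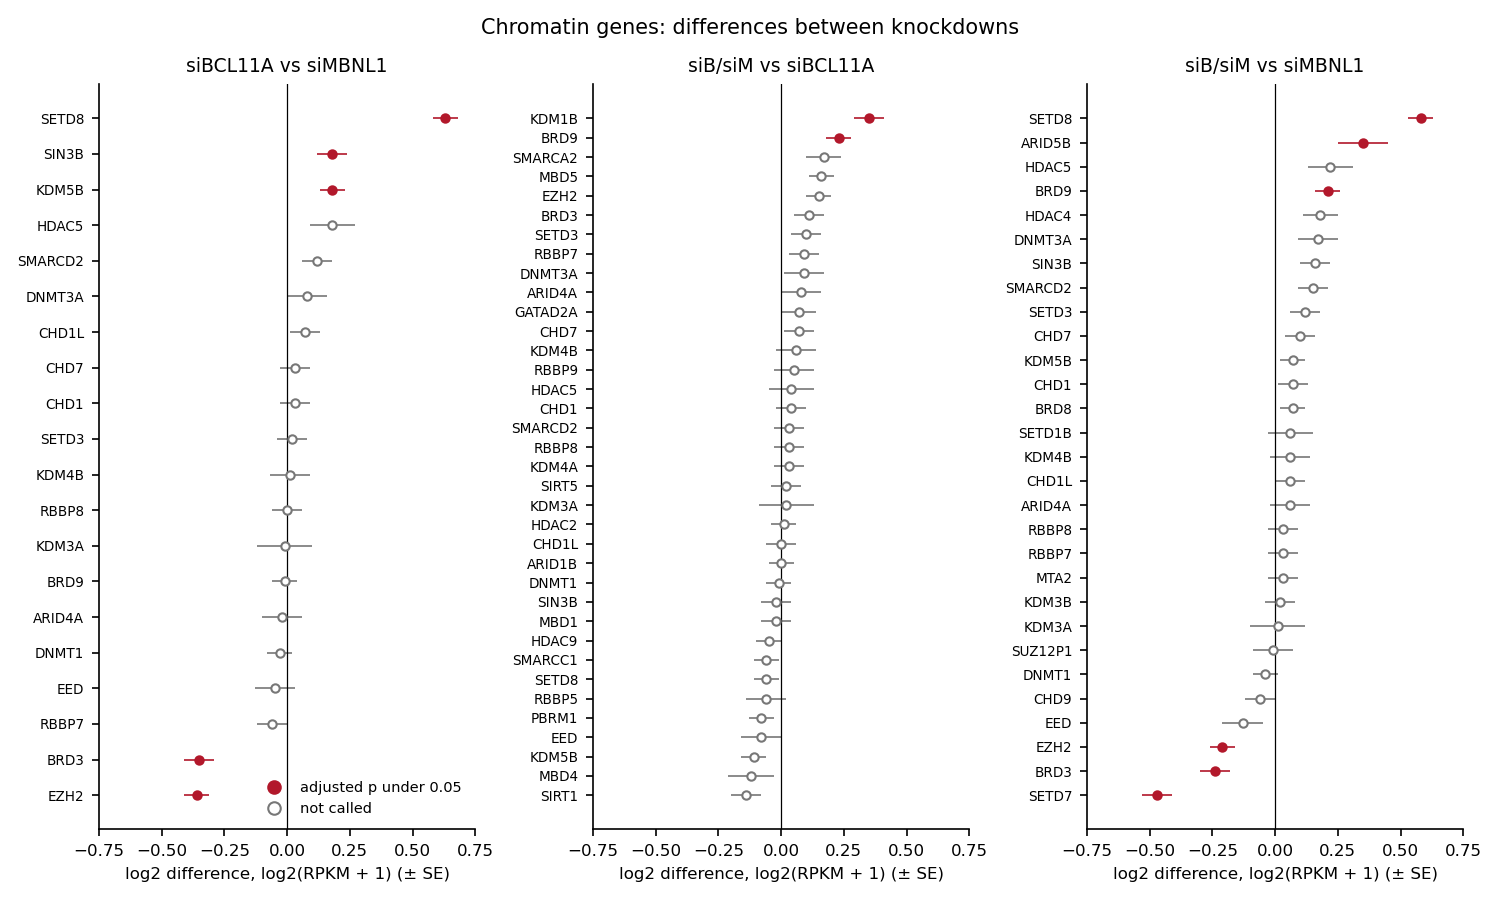
Log2 difference on the log2(RPKM + 1) scale (horizontal axis, bars show the SE) of every member with values in both groups, for siBCL11A vs siMBNL1 (20 members), siB/siM vs siBCL11A (36) and siB/siM vs siMBNL1 (29). Filled red points have an adjusted p under 0.05; SETD8 is farthest right in the panels against siMBNL1 at 0.63 and 0.58, while most members lie near 0.

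Chromatin genes outside the name rule, from lists of further complex subunits and enzymes, were also called in both directions. Of 165 such symbols, 60 had values in siBCL11A (30 called higher and 20 lower), 55 in siMBNL1 (28 and 23) and 79 in siB/siM (44 and 20), with median log2 changes of 0.21, 0.22 and 0.25. The share called higher was 50%, 50.9% and 55.7% in that order, beside 59%, 54.5% and 56.9% of the members and 42.3%, 45.2% and 51.3% of all listed genes, and these shares were not tested against each other. The accessory NuRD genes CDK2AP1, CDK2AP2, ZMYND8 and ZNF827 were called lower wherever they had values, 3 of 3 in siBCL11A and 4 of 4 in each of siMBNL1 and siB/siM. Among the NuRD members above all were called higher wherever they had values, except MTA3, which was not called. CDK2AP2 had log2 changes of -0.68, -0.37 and -0.56 (SE 0.07 each), in that order of knockdowns. Polycomb genes outside the rule were mostly higher, 6 of 9, 7 of 10 and 9 of 12 in that order, with 1, 2 and 1 lower. RNF2, the Polycomb ubiquitin ligase, had log2 changes of 0.70, 0.50 and 0.74. Histone acetyltransferases were called lower in 5 of 9, 4 of 5 and 4 of 10, and higher in 3, 1 and 2. Of all listed genes 46.9%, 49.1% and 35.5% were called lower in that order. NCOA3, a steroid receptor coactivator with acetyltransferase activity, was at 7.39, 6.77 and 6.52 RPKM in siBCL11A, 8.29, 8.29 and 6.96 RPKM in siMBNL1 and 7.05, 6.81 and 6.69 RPKM in siB/siM, against 12.9 and 13.1 RPKM in siNS. The highest change on the lists was that of PRMT3, an arginine methyltransferase, with 26.8, 23.5 and 24.9 RPKM in siBCL11A, 22.1, 26.1 and 21.7 RPKM in siMBNL1 and 28.2, 26.1 and 25.1 RPKM in siB/siM, against 9.27 and 8.44 RPKM in siNS. Its log2 changes of 1.40, 1.30 and 1.48 (SE 0.09 each) exceed that of every member. PRMT3, NCOA3, RNF2 and CDK2AP2 were picked as examples after their values were seen. No list's share is read as a result beyond its count, for the reason given for the members.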

How the data were processed

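Total RNA of the 11 libraries was depleted of ribosomal RNA and sequenced as stranded libraries, per the labels' protocols, and groups follow the sample titles. The authors deposited RPKM values per library on build hg19, per the submitters' processing notes, with their own log2 fold change and p-values. Their deposited lists of cassette exons give inclusion as a fraction, with 1 value per group and unknown depth. No source used here names the aligner or the counting program. Reads of near-identical copies may be split: RefSeq names pseudogenes after 11 of the 65 members.

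The table lists 5360, 4690 and 6700 genes for siBCL11A, siMBNL1 and siB/siM, and the authors' deposited adjusted p reaches at most 0.04998, 0.04982 and 0.04998 there, so its genes are those that passed the authors' test against siNS. Of 129 RefSeq protein-coding symbols that match the name rule, 63 have values. Effective sizes were worked out from short RNAs whose RPKM are whole multiples of 1 read, within 0.05 reads. No interval is given for levels, since these sizes are not stated depths.

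Values were analysed as log2(RPKM + 1) with limma 3.58.1 in R 4.3.3, with a mean for each of 4 groups, no trend or robust option, and each gene fitted on the groups it has. All 8085 genes passed a filter of a mean of 1 RPKM in at least 1 group. P-values were adjusted by Benjamini-Hochberg, against siNS over 23227 genes (the total implied by the authors' own adjustment, with unlisted genes taken as failing), and between knockdowns over the genes with values in both groups. The fits were also run on simulated data, drawn around the mean of each gene with its own spread. That simulation leaves out the selection of genes against siNS, so no support for the calls is read from it.

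Equal replicate numbers were checked for pairing by correlating deviations from group means across genes. For siB/siM and siBCL11A, r was 0.33, 0.19 and 0.18 for the 3 equal numbers, which is a hint of pairing from the data. The main fit used no replicate block, and adding a block left the 2 calls among members there as they were. In no other pair of groups did every equal number exceed an r of 0.1. Some unequal numbers correlated as highly, such as siMBNL1 library 2 with siBCL11A library 1 (r = 0.37) and with siB/siM library 1 (r = 0.34). The block joins equal numbers only, so it may mispair the siMBNL1 libraries.

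Named with values are the 8 called members of largest change in each comparison, members with a listed exon and the core or partner genes of the complexes; other members are named beside their role group. Members and lists were chosen with earlier results of these data known. Alternatives were a pseudocount of 0.1, no filter, a filter of 5 RPKM, centred libraries, the 2 groups alone, trend and robust options, another adjustment set, a replicate block, and leaving out each of the 11 libraries.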

Additional observations from a re-analysis of the deposited data

How the results depend on the processing

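Counts of members called moved by over 1.5 times in these cases. With a filter of at least 5 RPKM, 7 members were lower in siMBNL1 than in siNS, since fewer genes are tested. When the adjustment ran over listed genes only, 20 members were lower in siB/siM than in siNS. When it ran over 23227 genes, 1 member was higher in siBCL11A than in siMBNL1 and 1 higher in siB/siM than in siBCL11A. The same adjustment left 1 higher and 1 lower in siB/siM than in siMBNL1. Centring the libraries left 1 higher in siB/siM than in siBCL11A. The cause was not tested beyond the construction of these settings. Leaving out 1 library gave 16 to 23 higher and 11 to 15 lower for siBCL11A vs siNS, 10 to 18 and 6 to 11 for siMBNL1 vs siNS, and 19 to 34 and 8 to 14 for siB/siM vs siNS. Between knockdowns it gave 2 to 4 higher and 2 to 2 lower for siBCL11A vs siMBNL1, 1 to 2 and 0 to 0 for siB/siM vs siBCL11A, and 1 to 4 and 2 to 3 for siB/siM vs siMBNL1. With siNS library 1 or 2 left out, the lone control is assumed to vary like the other groups. No called member changed sign under any of these settings. With the replicate block, the counts were 22 higher and 14 lower, 17 and 10, and 28 and 12 against siNS for siBCL11A, siMBNL1 and siB/siM, 3 and 2 for siBCL11A vs siMBNL1, 2 and 0 for siB/siM vs siBCL11A and 4 and 3 for siB/siM vs siMBNL1. Equal replicate numbers in the other pairs of knockdowns had r of -0.22, -0.11 and 0.24 (siBCL11A with siMBNL1) and -0.22, -0.12 and 0.18 (siB/siM with siMBNL1). Against siNS, settings other than a left-out library or the block ended these calls. In siBCL11A they were DNMT3A (centred libraries, and the 2 groups alone), ARID1B (centred libraries, and trend and robust options), SIRT6 (pseudocount 0.1, and centred libraries), RBBP5 and KDM3A (pseudocount 0.1) and SETD6 (trend and robust options). In siMBNL1 they were BRD8, CHD1L, CHD9, KDM3B and SMARCD2 (the 2 groups alone), SMARCE1 (the 2 groups alone, and pseudocount 0.1), SIRT7 and SMARCD1 (pseudocount 0.1), MTA2 (the 2 groups alone, pseudocount 0.1, and centred libraries) and KDM3A (the 2 groups alone, pseudocount 0.1, and the 5 RPKM filter). In siB/siM they were ARID1B (trend and robust options) and HDAC6 and KDM3A (pseudocount 0.1). Between knockdowns, adjustment over 23227 genes ended the calls of KDM5B and SIN3B (siBCL11A vs siMBNL1), BRD9 (siB/siM vs siBCL11A) and ARID5B, BRD3, BRD9 and EZH2 (siB/siM vs siMBNL1), and the 2 groups alone that of SIN3B. The replicate block ended those of KDM3A in all 3, SMARCC1 in siBCL11A, CHD9, KDM3B and MTA2 in siMBNL1, and HDAC6, HDAC8, KDM1A, MTA1, MTA2 and SIRT1 in siB/siM.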

Other observations

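Of the 65 members, 89.2% had values in siB/siM, 60% in siBCL11A and 50.8% in siMBNL1, beside 82.9%, 66.3% and 58% of all 8085 listed genes, and these shares follow the same order in both. Values in all 3 knockdowns were present for 30.8% of members, beside 38.9% of all genes, and values in siB/siM alone for 20%, beside 17.5%.

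The log2 fold change for siBCL11A in the authors' deposited table follows siBCL11A library 1 rather than the mean of its 3 libraries. Across genes the SD of its difference was 0.00879 from library 1 and 0.146 from the mean. For siMBNL1 and siB/siM the SD from the mean was 0.00744 and 0.00847.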
